A study of Homo sapiens with 12 samples.

Results

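The IL-6 family genes described here are 9 genes fixed by name, namely the cytokines IL6, LIF and IL11, the receptor subunits IL6ST, IL6R, LIFR and OSMR, the transcription factor STAT3 and the feedback inhibitor SOCS3. They were taken from the 36315 genes whose transcripts were quantified, and all 9 were among the 21601 genes that passed the filter on low counts. RNA-seq was performed on HMC3, an immortalized human line that is used as a model of microglia, in 12 libraries. Cells of every group were transfected with siRNA for 48 h and then received an Fc protein, pre-clustered with goat anti-human IgG, at 2 ug/mL for 24 h. There were 4 groups of 3 libraries. The Ctrl and EphB2 groups were transfected with a negative control siRNA before Ctrl-Fc or EphB2-Fc, respectively. The group called ephrin-B1 siRNA had the targeting siRNA before Ctrl-Fc, and the group called EphB2 + ephrin-B1 siRNA had it before EphB2-Fc. EphB2-Fc is the soluble receptor EphB2 fused to an antibody Fc part, and it engages ephrin-B ligands on the cell surface. The design asks how EphB2-Fc, the knockdown of ephrin-B1 and both together change these transcripts.

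Cytokines of the IL-6 family signal through receptor complexes that share IL6ST, also called gp130. IL-6 and IL-11 first bind a receptor subunit of their own (IL6R or IL11RA), whereas LIF acts through LIFR, and oncostatin M through OSMR or LIFR, each paired with gp130. Receptor-bound JAK kinases then phosphorylate STAT3, and STAT3 induces SOCS3, which binds gp130 and shuts the signal down. IL6 transcription itself is driven largely by NF-kB, C/EBP and AP-1 factors, and microglia are known as a source of IL-6 in the inflamed brain.

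Promoter windows of RefSeq (GRCh38.p14) were found for 8 of the 9 members, and LIF had none. The 250 bases before the annotated start are shown for the cytokine genes IL6 and IL11 and for a LIFR start. IL6 and LIFR differed with EphB2-Fc in the average over both siRNA backgrounds, and IL11 did so with the replicate block only. IL6ST also differed in that average, but its window held no match to the letters below and is not printed. Capitals mark matches, on either strand, to the letters TTGCNCAAT (C/EBP), GGNNTTTCC (NF-kB), TGANTCA (AP-1) and TTCNNNGAA (STAT), none of which overlapped another in these windows.
IL6, chr7:22726950-22727199, plus strand: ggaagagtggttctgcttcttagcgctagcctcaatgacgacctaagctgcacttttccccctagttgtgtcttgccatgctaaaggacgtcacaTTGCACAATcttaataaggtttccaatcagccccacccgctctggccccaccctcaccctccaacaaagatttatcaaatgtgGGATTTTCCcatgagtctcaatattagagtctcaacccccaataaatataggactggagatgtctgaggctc
IL11, chr19:55370464-55370713, minus strand: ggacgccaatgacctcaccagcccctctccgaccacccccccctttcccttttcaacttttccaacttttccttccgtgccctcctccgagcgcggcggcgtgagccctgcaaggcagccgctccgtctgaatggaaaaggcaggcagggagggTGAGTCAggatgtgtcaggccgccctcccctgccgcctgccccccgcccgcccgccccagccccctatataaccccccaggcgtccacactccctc
LIFR, chr5:38595406-38595655, minus strand: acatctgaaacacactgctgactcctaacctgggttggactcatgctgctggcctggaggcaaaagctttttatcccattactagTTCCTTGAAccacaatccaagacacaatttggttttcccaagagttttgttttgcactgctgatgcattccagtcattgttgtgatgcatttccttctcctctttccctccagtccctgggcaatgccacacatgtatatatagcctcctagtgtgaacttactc

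The IL6 window held a C/EBP match from base -155 to base -147 and an NF-kB match from base -72 to base -64, counted from the start. Over all 35116 promoter windows of 300 bases, 0.592% held the C/EBP letters, 6.26% the NF-kB letters, 7.71% the AP-1 letters and 7.66% the STAT letters. IL11 held an AP-1 match from base -96 to base -90, and LIFR held a STAT match in 2 of its 3 windows. IL6R and OSMR, which did not pass with EphB2-Fc, also held an AP-1 match, from base 37 to base 43 and from base 3 to base 9. Of the 11 windows of the members, 5 held no match, among them those of IL6ST and STAT3. No match to the STAT letters was in the 2 windows of SOCS3, at 78360876 to 78361175 and 78359618 to 78359917 on chromosome 17. SOCS3 is on the minus strand, and its annotated gene start at 78360077 lies in neither window. The bases just before that start were not searched, so no conclusion on a STAT match there can be drawn. A match is a description of the letters and does not show that a factor binds there.

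IL6ST (ENSG00000134352, chromosome 5 from 55935095 to 55995022 in the positions of GENCODE 44) had the highest level of the 9 members. On the TPM scale, which divides by transcript length, it stood between 79.7 and 140 over the 12 libraries. STAT3 followed with a mean of 85.9 TPM (62.7 to 131), then IL11 with 65.5 TPM (42.1 to 100) and OSMR with 62.3 TPM (47.9 to 74.7). Neighbours in this order up to OSMR overlapped in their ranges, whereas OSMR lay above SOCS3 in every library. SOCS3 stood at a mean of 30.1 TPM (20.3 to 41.1), LIF at 19.0 TPM (14.1 to 25.7), LIFR at 13.3 TPM (9.82 to 17.4) and IL6 at 11.8 TPM (5.33 to 20.6). The lowest member was IL6R, the IL-6-binding subunit, with 3.91 TPM (2.52 to 5.55), and its range touched that of IL6. IL11RA, which binds IL-11 and is not a member, was measured at a mean of 17.1 TPM (10.5 to 26.2). OSM, the ligand of OSMR, had only 19 estimated counts over all 12 libraries.

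**Figure D1:**
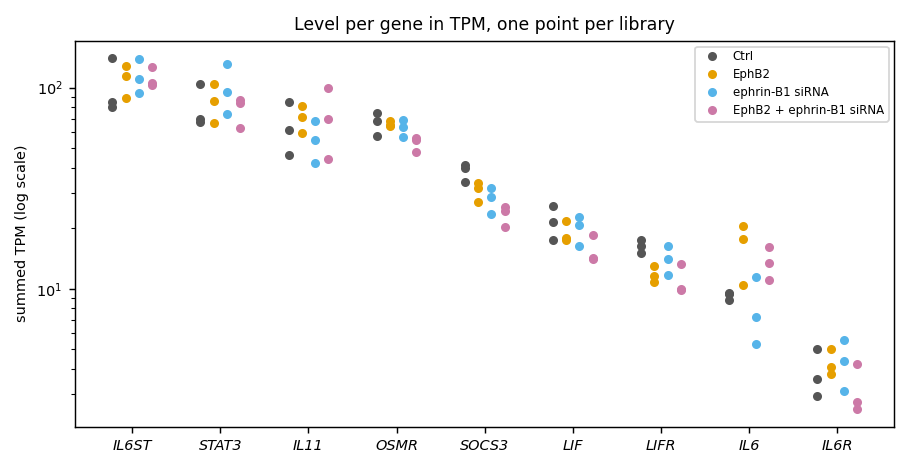
Summed TPM per gene (log axis) for the 9 members, a point per library, coloured by group, with genes ordered by their mean. IL6ST was highest at 79.7 to 140 TPM and IL6R lowest at a mean of 3.91 TPM, and of the 8 steps between neighbours only that from OSMR to SOCS3 has no overlap.

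EFNB1, the gene of ephrin-B1 and the siRNA target, was checked first. It stood at 20.4, 17.5 and 19.3 CPM (counts per M counts after TMM normalization) in Ctrl replicates 1, 2 and 3, and at 15.6, 18.8 and 18.4 CPM in EphB2. In ephrin-B1 siRNA it stood at 7.10, 6.60 and 8.70 CPM, and in EphB2 + ephrin-B1 siRNA at 6.56, 6.03 and 6.38 CPM. Every library with ephrin-B1 siRNA was below every library without it, with log2 fold changes of -1.35 (SE 0.13, adjusted p = 0.00124, edgeR) against Ctrl and -1.47 (SE 0.13, adjusted p = 0.00189) under EphB2-Fc.

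The identity of the line was checked against marker genes. Of 10 microglia markers, 2 reached a mean of 1 TPM, and SPI1, CX3CR1 and TYROBP were near 0. Of 10 fibroblast and pericyte markers, 8 reached it. The summed level of the fibroblast and pericyte list was 2410 to 2750 TPM in Ctrl, 1730 to 2060 in EphB2, 1900 to 2680 in ephrin-B1 siRNA and 1400 to 1820 in EphB2 + ephrin-B1 siRNA. COL3A1 and LUM of this list were near 0. The list was thus lower with EphB2-Fc, in the direction of LIFR below and against that of IL6 and IL6ST, and its part in these results was not tested. The microglia list summed to 3.71 to 7.08 TPM over the libraries. Astrocyte, endothelial and T cell lists summed to 11.5 to 25.3, 1.78 to 4.94 and 0.0 to 0.623 TPM, and 3 of 5 astrocyte markers reached a mean of 1 TPM. In bulk RNA, fewer cells of a type and less RNA per cell cannot be told apart.

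IL6, the cytokine with the lowest level of the 3 cytokine members, rose with EphB2-Fc when both siRNA backgrounds were averaged. IL6 (ENSG00000136244, chromosome 7 from 22725884 to 22732002) stood at 4.64, 6.09 and 4.76 CPM in Ctrl replicates 1, 2 and 3 and at 11.1, 9.04 and 11.7 CPM in EphB2. With ephrin-B1 siRNA it stood at 4.47, 3.45 and 4.37 CPM under Ctrl-Fc and at 10.8, 8.08 and 8.17 CPM under EphB2-Fc. Every library with EphB2-Fc was above every library with Ctrl-Fc, and the counts behind these values were 59 to 276 per library. The mean rose from 5.16 ± 0.806 to 10.6 ± 1.39 CPM without and from 4.10 ± 0.565 to 9.03 ± 1.57 CPM with ephrin-B1 siRNA (SD, n = 3).

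The log2 fold change of IL6 was 1.04 (SE 0.18) in EphB2 vs Ctrl and did not pass the threshold on adjusted p of 0.05 (adjusted p = 0.112, edgeR). It passed with the replicate number as a block (log2 fold change 1.02, adjusted p = 0.00178), and not when this fit left out replicate 3 (adjusted p = 0.0878). In EphB2 + ephrin-B1 siRNA against ephrin-B1 siRNA alone, IL6 rose by 1.14 (SE 0.18, adjusted p = 0.0478). This call was kept without Ctrl replicate 2 or EphB2 replicate 2 and lost without any of the 10 other libraries, with adjusted p from 0.0485 to 0.219 over the 12 fits. Averaged over both siRNA backgrounds, IL6 rose 2.13-fold (log2 fold change 1.09, SE 0.13, adjusted p = 0.00319), and that call was kept without each of the 12 libraries. The rise did not depend detectably on the knockdown: the interaction, that is the effect of EphB2-Fc with ephrin-B1 siRNA minus its effect without, was 0.10 (SE 0.25, adjusted p = 1.0).

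The size of the IL6 change was smaller in TPM. In replicate 2, IL6 stood at 9.46 TPM in Ctrl and 10.5 TPM in EphB2, beside 6.09 and 9.04 CPM. Replicates 1 and 3 stood at 9.53 and 8.81 TPM in Ctrl and at 20.6 and 17.6 TPM in EphB2. On the log2(TPM + 1) scale the average difference was 0.71 (adjusted p = 0.144, limma), where 0 of 21600 genes passed. Estimated counts were divided among 9 IL6 transcripts, and the canonical IL6-201 took between 16.1% and 65.1% of the gene's TPM in a library. The difference between transcript length and effective length, which follows fragment length, was 224.5 to 238.2 bases in EphB2 and 221.4 to 228.2 in Ctrl, and its part in the TPM values was not tested.

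IL11, a cytokine with a profibrotic role, was measured at much higher levels than IL6. IL11 (ENSG00000095752, chromosome 19 from 55364382 to 55370463) stood at 50.2, 111 and 82.9 CPM in Ctrl and 67.0, 127 and 92.5 CPM in EphB2. In ephrin-B1 siRNA it stood at 37.4, 87.4 and 59.7 CPM, and in EphB2 + ephrin-B1 siRNA at 56.6, 145 and 89.3 CPM. Replicate 1 was lowest and replicate 2 highest in each group, so the groups overlapped, while every same-numbered pair was higher with EphB2-Fc. Without the block no IL11 difference passed (average log2 fold change 0.44, SE 0.28, adjusted p = 0.571). With the block IL11 rose by 0.25 (adjusted p = 0.0471) in EphB2 vs Ctrl and by 0.64 (adjusted p = 0.000132) in the presence of ephrin-B1 siRNA. It fell with ephrin-B1 siRNA vs Ctrl (log2 fold change -0.41, adjusted p = 0.00117 with the block), and under EphB2-Fc the knockdown left it at -0.03 (SE 0.067, adjusted p = 0.887 with the block). The blocked interaction of 0.39 (SE 0.096) had a p of 0.00127 before adjustment over all genes and 0.555 after it.

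LIF, the ligand of LIFR, was lower in ephrin-B1 siRNA than in Ctrl, and its difference with EphB2-Fc was near 0. LIF (ENSG00000128342, chromosome 22 from 30240453 to 30246759) stood at 39.8, 58.4 and 50.7 CPM in Ctrl, at 40.2, 54.2 and 48.4 CPM in EphB2, at 30.0, 37.8 and 36.2 CPM in ephrin-B1 siRNA and at 34.7, 39.8 and 36.3 CPM in EphB2 + ephrin-B1 siRNA. The 3 ephrin-B1 siRNA libraries lay below the 3 Ctrl libraries. The log2 fold change of ephrin-B1 siRNA vs Ctrl was -0.52 (SE 0.15, adjusted p = 0.126), and it passed with the block (-0.51, adjusted p = 0.000142) and without Ctrl replicate 1 (adjusted p = 0.0495). Under EphB2-Fc the knockdown gave -0.36 (SE 0.15, adjusted p = 0.406) and passed with the block (-0.35, adjusted p = 0.00374). The average EphB2-Fc effect on LIF was 0.01 (SE 0.10, adjusted p = 0.983).

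**Figure D2:**
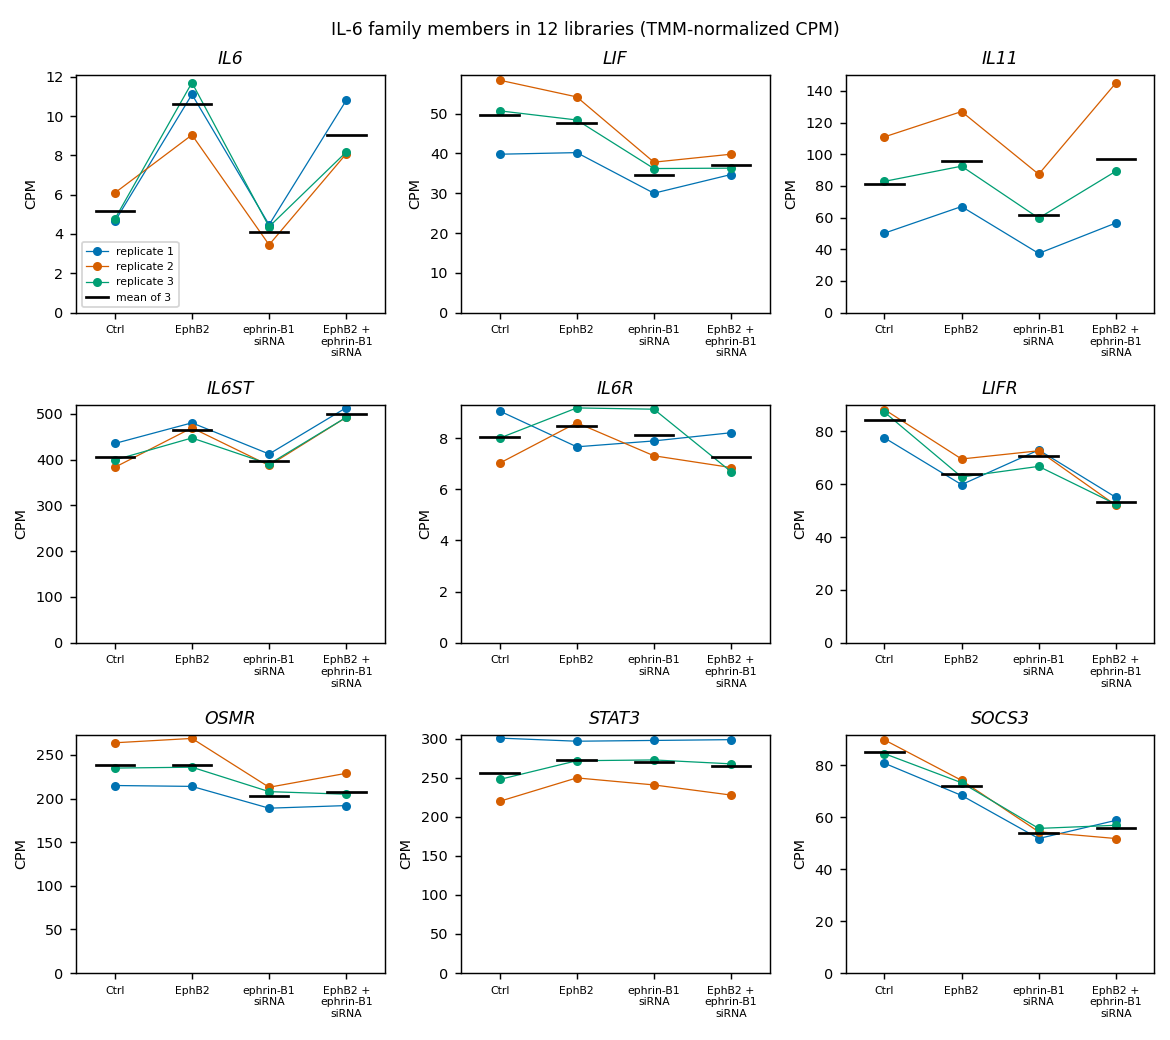
TMM-normalized CPM of the 9 members in the 4 groups, a panel per gene with an axis from 0, points coloured by replicate number and joined across groups, and bars at the mean of 3 libraries. IL6 is higher in all 6 libraries with EphB2-Fc, LIFR is lower in EphB2 than in Ctrl, SOCS3 is lower in all 6 libraries with ephrin-B1 siRNA, and the IL11 panel is ordered by replicate number.

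Among the receptors, IL6ST was higher and LIFR lower with EphB2-Fc. IL6ST stood at 435, 383 and 399 CPM in Ctrl and 480, 469 and 447 CPM in EphB2, and at 412, 387 and 390 CPM in ephrin-B1 siRNA and 513, 492 and 492 CPM in EphB2 + ephrin-B1 siRNA. Its 6 libraries with EphB2-Fc lay above the 6 with Ctrl-Fc. On average IL6ST rose 1.20-fold (adjusted p = 0.027), a log2 fold change of 0.26 with an SE of 0.047. That call was kept without Ctrl replicate 1, EphB2 replicate 2, ephrin-B1 siRNA replicate 1 or EphB2 + ephrin-B1 siRNA replicate 2 and lost without any of the 8 other libraries, with adjusted p up to 0.0903. It was also lost with an offset for transcript length (0.23, adjusted p = 0.322) and on the log2(TPM + 1) scale (0.06, adjusted p = 0.871, limma). In that limma fit 0 of 21600 genes passed. In the single comparisons IL6ST was at 0.20 (adjusted p = 0.471; with the block 0.0105) without and 0.33 (adjusted p = 0.124; with the block 0.000335) with ephrin-B1 siRNA. The effect of the siRNA on IL6ST was -0.03 (SE 0.066, adjusted p = 0.94) against Ctrl.

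LIFR (ENSG00000113594, chromosome 5 from 38474668 to 38608354), which pairs with gp130 to bind LIF, stood at 77.5, 88.2 and 87.2 CPM in Ctrl and 59.8, 69.5 and 62.7 CPM in EphB2. In ephrin-B1 siRNA it stood at 72.9, 72.6 and 66.7 CPM and in EphB2 + ephrin-B1 siRNA at 55, 52.0 and 52.4 CPM. Within each siRNA background, the EphB2-Fc libraries were below the Ctrl-Fc libraries without overlap. On average LIFR fell to 0.755-fold (-0.40 on the log2 scale, SE 0.054, adjusted p = 0.00547), and the call was kept without each of the 12 libraries. Each comparison alone gave -0.40 (adjusted p = 0.135; with the block 0.00187) without and -0.41 (adjusted p = 0.095; with the block 0.00171) with ephrin-B1 siRNA, and the interaction was -0.01 (SE 0.11, adjusted p = 1.0). These sizes depended on the scaling. With an offset for transcript length LIFR stayed at -0.40 (adjusted p = 0.625) without ephrin-B1 siRNA but was at -0.07 (adjusted p = 0.984) with it, so that the average was -0.23 (adjusted p = 0.39) and the interaction 0.33 (SE 0.19, adjusted p = 1.0). LIFR was also lower with the siRNA, at -0.25 (SE 0.076, adjusted p = 0.149) vs Ctrl and -0.27 (SE 0.076, adjusted p = 0.177) under EphB2-Fc. Both passed with the block (adjusted p = 0.0125 and 0.0171), and the length offset moved them to -0.40 and -0.07 (adjusted p = 0.314 and 0.965).

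OSMR, the receptor subunit for oncostatin M, differed with EphB2-Fc by less than its spread (average log2 fold change 0.02, SE 0.075, adjusted p = 0.95). It stood at 215, 264 and 235 CPM in Ctrl, at 214, 269 and 236 CPM in EphB2, at 189, 213 and 208 CPM in ephrin-B1 siRNA and at 192, 229 and 205 CPM in EphB2 + ephrin-B1 siRNA. The siRNA gave -0.23 (SE 0.11, adjusted p = 0.422) vs Ctrl and -0.20 (SE 0.11, adjusted p = 0.58) under EphB2-Fc, and both passed with the block (adjusted p = 0.00252 and 0.0081). OSMR overlaps RICTOR on the opposite strand, and without a stated strand setting in the counting their reads cannot be told apart where they overlap. The same limit holds for IL6 (with STEAP1B and IL6-AS1), LIFR (with LIFR-AS1), LIF, IL6ST and IL6R, which also overlap annotated genes on the opposite strand. IL6R ranged from 6.69 to 9.18 CPM over the 12 libraries with 86 to 209 counts each, and none of its comparisons passed in either fit. Its largest difference between 2 groups was EphB2 + ephrin-B1 siRNA vs EphB2, at -0.22 (SE 0.15, adjusted p = 0.708).

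STAT3, which carries the signal to the nucleus, stayed between 220 and 301 CPM. It was at 301, 220 and 248 CPM in Ctrl, at 297, 250 and 272 CPM in EphB2, at 298, 241 and 273 CPM in ephrin-B1 siRNA and at 299, 228 and 268 CPM in EphB2 + ephrin-B1 siRNA. Replicate 1 was highest and replicate 2 lowest in each group, and no comparison of groups passed in either fit. The average EphB2-Fc effect was 0.03 (SE 0.094, adjusted p = 0.946), and ephrin-B1 siRNA vs Ctrl was 0.08 (SE 0.13, adjusted p = 0.924). These values are transcript levels, and phosphorylation of STAT3 was not measured.

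SOCS3, the feedback inhibitor of gp130 signalling, had the largest log2 fold change of the 9 members in ephrin-B1 siRNA vs Ctrl. SOCS3 (ENSG00000184557, chromosome 17 from 78356778 to 78360077) stood at 80.8, 89.8 and 84.5 CPM in Ctrl and 68.4, 74.2 and 73.3 CPM in EphB2. In ephrin-B1 siRNA it stood at 51.8, 54.4 and 55.7 CPM and in EphB2 + ephrin-B1 siRNA at 58.8, 51.8 and 56.9 CPM. The 6 libraries with the siRNA lay below the 6 without it. SOCS3 fell to 0.635-fold with ephrin-B1 siRNA vs Ctrl (log2 fold change -0.66, SE 0.069, adjusted p = 0.00159), and this call was kept without each of the 12 libraries. The call was lost on the log2(TPM + 1) scale (-0.45, adjusted p = 0.428, limma), where 0 of 21600 genes passed. In EphB2 + ephrin-B1 siRNA vs EphB2 it fell to 0.776-fold (-0.37, SE 0.069, adjusted p = 0.0452; with the block 0.00169). That call was lost without any library, with adjusted p from 0.0506 to 0.197.

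Without ephrin-B1 siRNA, SOCS3 under EphB2-Fc was at -0.24 on the log2 scale (SE 0.069, adjusted p = 0.399), where EphB2 and Ctrl did not overlap and the blocked fit passed (adjusted p = 0.0275). With ephrin-B1 siRNA it was 0.05 (SE 0.070, adjusted p = 0.952). The test of the difference itself, the interaction, was 0.29 (SE 0.098) with a p of 0.0126 before and 1.0 after adjustment over all genes. In EphB2 vs Ctrl the log2 fold changes of SOCS3 and IL6 had opposite signs.

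Counted over the members, EphB2 vs Ctrl called 0 of 9 without the block, beside 0.037% of all genes, while 4 members and 1632 of the 21601 genes had an unadjusted p under 0.05, and DESeq2 called 205 genes, of which 2 were members, IL6 and LIFR. With the block it called 5 of 9 (IL6, IL11 and IL6ST higher, LIFR and SOCS3 lower) beside 5.34% of all genes. In EphB2 + ephrin-B1 siRNA against ephrin-B1 siRNA alone it was 1 of 9 beside 0.116%, and with the block 4 of 9 (IL6, IL11, IL6ST, LIFR) beside 6.93%. The average EphB2-Fc effect called 3 of 9 beside 1.03% and, with the block, 4 of 9 beside 14.0%. Ephrin-B1 siRNA vs Ctrl called 1 of 9 beside 1.81% and, with the block, 5 of 9 beside 13.6%, all 5 lower. EphB2 + ephrin-B1 siRNA vs EphB2 called 1 of 9 beside 0.616% and, with the block, 4 of 9 beside 9.93%, all 4 lower. The interaction called 0 of 9 beside 0.0% without the block, where 1 member and 498 genes had an unadjusted p under 0.05 and DESeq2 called no member and 2 genes, and 0 of 9 beside 0.00463% with it. The members' median log2 fold change was 0.08 in EphB2 vs Ctrl and -0.25 in ephrin-B1 siRNA vs Ctrl, beside medians over all genes of 0.007 and -0.003.

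**Figure D3:**
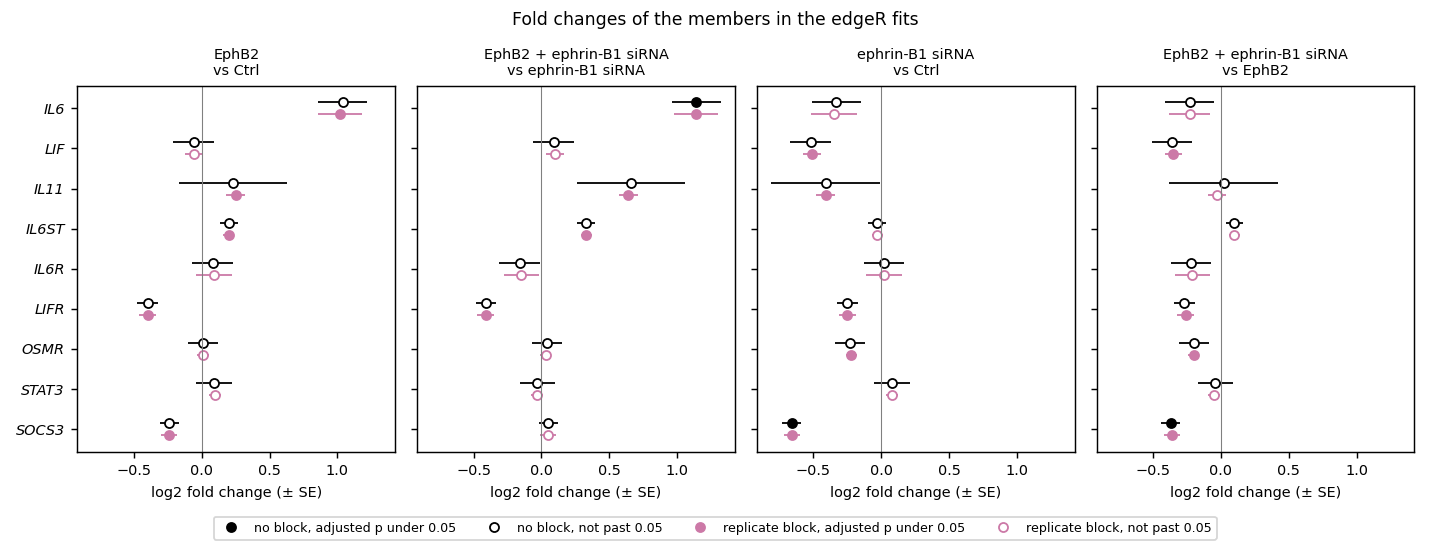
Log2 fold changes of the 9 members (x axis, bars are the SE of the fit) in 4 comparisons, in black without and in pink with the replicate block, filled where the adjusted p was under 0.05. Without the block, IL6 was at 1.04 and 1.14 and LIFR at -0.40 and -0.41 with EphB2-Fc in the absence and presence of ephrin-B1 siRNA, and the block narrows the bar of IL11 most, from an SE of 0.40 to 0.068.

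The replicate numbers carried differences of their own in 4 members. Between replicate 1 and replicate 2, in the blocked fit, IL11 was at -1.16 (SE 0.06, adjusted p = 3.14e-09), LIF at -0.38 (SE 0.056, adjusted p = 9.05e-05), OSMR at -0.27 (SE 0.036, adjusted p = 3.85e-05) and STAT3 at 0.35 (SE 0.038, adjusted p = 4.83e-06). The share of all genes called between these replicates was 36.4%. IL11 in replicate 2 was 2.21-fold that in replicate 1 in Ctrl, 1.90-fold in EphB2, 2.34-fold in ephrin-B1 siRNA and 2.56-fold in EphB2 + ephrin-B1 siRNA. Each of these ratios was larger than the average EphB2-Fc fold of 1.36 for IL11. IL6, IL6R, LIFR, SOCS3 and IL6ST did not pass between replicates 1 and 2, IL6ST with an adjusted p of 0.0559 and 0.016 in DESeq2 with the block.

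Replicate 3 lay between replicates 1 and 2 in 29 of the 36 combinations of member and group (80.6%), beside 58.7% to 63.7% of the 14272 genes with a mean of at least 1 CPM. Among those of the 14272 genes that differed at least 2-fold between replicates 1 and 2 (1105 to 1166 genes per group), a choice that favours lying between them, the share was 89.1% to 93.3%. Same-numbered libraries deviated together for replicate 1 (correlation of deviations 0.57 to 0.67) and replicate 2 (0.61 to 0.64), but hardly for replicate 3 (0.01 to 0.18). The blocked p-values take replicate 3 as a separate experiment. Without it 20658 genes were tested, and the block called no member in EphB2 vs Ctrl (140 genes called) or in EphB2 + ephrin-B1 siRNA vs EphB2 (333 genes). It called IL6, IL11, IL6ST and LIFR in EphB2 + ephrin-B1 siRNA against ephrin-B1 siRNA alone, among 169 genes, and LIF, IL11 and SOCS3 in ephrin-B1 siRNA vs Ctrl, among 830 genes.

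**Figure D4:**
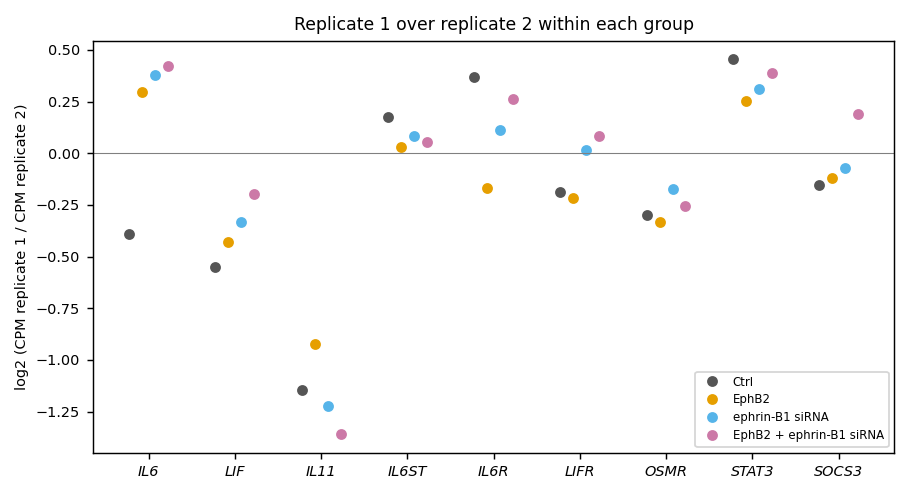
Log2 ratio of CPM in replicate 1 over replicate 2 (y axis) for each member, a point per group. All 4 points of IL11, LIF and OSMR are below 0 and all 4 of STAT3 above it, and IL11 is farthest from 0 in each group.

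Genes that control IL6 transcription or the stability of its mRNA were read as a list of 9. In EphB2 vs Ctrl the median log2 fold change was 0.19, beside 0.007 over all genes, with ELAVL1 at 0.0 and the 8 others above 0, and none passed without the block. In the average EphB2-Fc effect 8 of 9 were positive (median 0.22, beside 0.009 over all genes), again with none past the threshold without the block. With it 6 of 9 rose, beside 1220 of 21601 genes that rose in the same fit. The list was chosen with earlier results of these data known, so these counts describe it and are no test of it. Whether these genes had a part in the IL6 rise was not tested. NFKB1, an NF-kB subunit, stood at 20.6, 27.0 and 28.6 CPM in Ctrl and 27.9, 31.7 and 32.6 CPM in EphB2, and at 25.9, 24.4 and 27.3 CPM in ephrin-B1 siRNA and 34.9, 37.1 and 37.3 CPM in EphB2 + ephrin-B1 siRNA. Its average effect was 0.38 (SE 0.082, adjusted p = 0.0529; with the block 0.000491), so it missed the threshold narrowly without the block. ARID5A, which stabilizes IL6 mRNA, was at 0.33 (SE 0.075, adjusted p = 0.0679; with the block 0.00177). CEBPB, a C/EBP factor first described at the IL6 promoter, was at 0.32 (SE 0.13, adjusted p = 0.33; with the block 0.0136). NFKBIZ, a nuclear cofactor of NF-kB, was at 0.22 (adjusted p = 0.185; with the block 0.0175). ZC3H12A, which degrades IL6 mRNA, was at 0.27 (adjusted p = 0.215; with the block 0.0371), and RELA at 0.09 (adjusted p = 0.334; with the block 0.0466). ZFP36L1, an mRNA decay factor, fell with ephrin-B1 siRNA by 0.62 (SE 0.11, adjusted p = 0.0162) vs Ctrl and by 0.64 (SE 0.11, adjusted p = 0.0294) under EphB2-Fc.

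**Figure D5:**
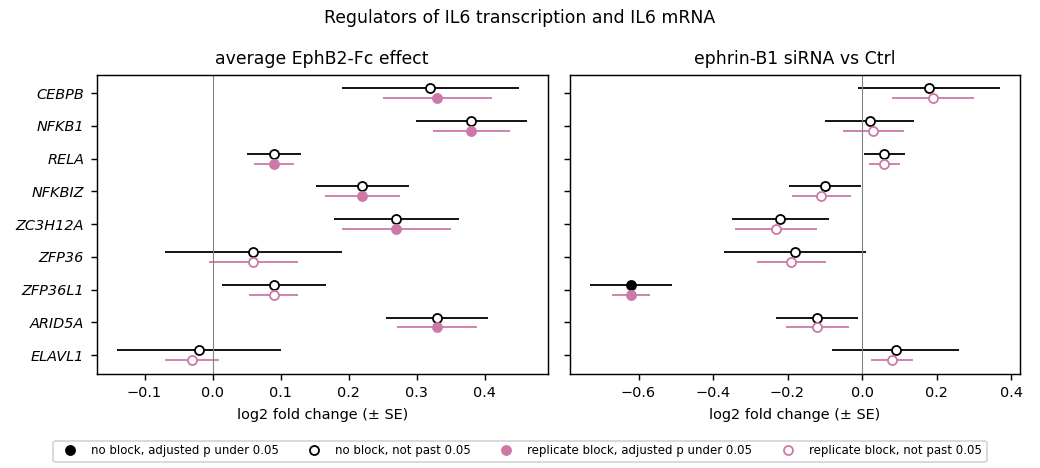
Log2 fold changes (x axis, bars are the SE of the fit) of 9 regulators of IL6 transcription or IL6 mRNA for the average EphB2-Fc effect and for ephrin-B1 siRNA vs Ctrl, in black without and in pink with the replicate block, filled where the adjusted p was under 0.05. With EphB2-Fc 6 of the 9 are filled in pink only, from RELA at 0.09 to NFKB1 at 0.38, and with the siRNA ZFP36L1 alone is filled, at -0.62.

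Of the other family ligands, 6 of 8 were tested. None passed without the block in the average EphB2-Fc effect (median 0.11), and with it CTF1 (cardiotrophin-1) fell by 0.37 (SE 0.11, adjusted p = 0.0406; without the block 0.206). CNTF stood at 2.40, 2.89 and 3.24 CPM in Ctrl and 1.53, 1.64 and 1.73 CPM in ephrin-B1 siRNA. It was at -0.80 there (SE 0.20, adjusted p = 0.0788; with the block 0.019), with an interaction of 1.07 (SE 0.28) that had a p of 0.00279 before and 1.0 after adjustment. CLCF1 was at -0.40 in ephrin-B1 siRNA vs Ctrl (adjusted p = 0.274; with the block 0.0306).

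Of the 4 other family receptors, IL27RA rose in the average EphB2-Fc effect (log2 fold change 0.45, SE 0.093, adjusted p = 0.0454), and the list's median was 0.16. With the block IL31RA also rose, by 0.31 (adjusted p = 0.0169; without the block 0.402), and IL11RA fell, at -0.29 (adjusted p = 0.00786; without the block 0.242). IL31RA was at -0.69 in ephrin-B1 siRNA vs Ctrl (adjusted p = 0.159; with the block 0.00118).

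Among 16 signal transducers and feedback genes none passed without the block in the average EphB2-Fc effect (median 0.0), and PTPN2 was among those that rose with it. PTPN2, a phosphatase that acts on JAK and STAT proteins, stood at 21.7, 21.9 and 22.9 CPM in Ctrl and 26.5, 27.9 and 27.6 CPM in EphB2, and its average effect was 0.22 (adjusted p = 0.072; with the block 0.00607). CISH was at -0.80 (adjusted p = 0.133; with the block 0.0254) and ADAM10, a sheddase, at -0.18 (adjusted p = 0.538; with the block 0.00817) in ephrin-B1 siRNA vs Ctrl. JAK1, JAK2 and TYK2 passed in none of the comparisons of groups.

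Of 20 STAT3 target genes, 17 were tested. The list's median was 0.12 in the average EphB2-Fc effect, and SAA1, an acute phase gene, rose by 2.60 (SE 0.48, adjusted p = 0.0307). SAA1 rested on few reads, with 1, 1 and 3 counts in Ctrl, 16, 15 and 10 in EphB2, 2, 1 and 0 in ephrin-B1 siRNA and 9, 3 and 4 in EphB2 + ephrin-B1 siRNA. It has near-identical copies in its gene family, and its level is uncertain. Its fitted fold also depends on the prior count. With the block JUNB (0.35), MYC (0.33), IL4R (0.33) and CCND1 (0.12) also rose and PIM1 (-0.22) and BCL2L1 (-0.13) fell, with adjusted p of 0.0013, 0.000132, 0.00093, 0.0116, 0.00976 and 0.0271. In ephrin-B1 siRNA vs Ctrl, MCL1, an anti-apoptotic gene, rose by 0.44 (SE 0.082, adjusted p = 0.0225) and VEGFA fell by 0.55 (SE 0.091, adjusted p = 0.0129). With the block MYC, IL4R and CCND1 fell there (log2 fold changes -0.53, -0.28 and -0.28, adjusted p = 4.81e-05, 0.0246 and 0.000516).

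The transcripts behind each gene were read as TPM shares over all libraries. SOCS3 came from 1 transcript, SOCS3-201, in each library. LIF was split between LIF-201 (64.7%) and LIF-202 (35.3%). OSMR came mostly from OSMR-201 (68.7%) and OSMR-202 (22.7%), and STAT3 from STAT3-201 (52.1%), STAT3-212 (17.7%) and STAT3-203 (12.9%). IL11 was split among IL11-202 (45.9%), IL11-201 (41.8%) and IL11-203 (11.7%). For IL6ST the transcript with the largest share, IL6ST-213 (40.9%), is annotated as a target of nonsense-mediated decay. The protein-coding IL6ST-206 took 20.9%, and the canonical IL6ST-204, also protein-coding, took 2.98%. For IL6, IL6-201 took 40.6%, IL6-207 28.0% and IL6-209 10.1%. For LIFR, LIFR-202 took 35.9%, LIFR-201 18.1%, LIFR-204 14.3% and LIFR-203 10.1%. For IL6R, IL6R-202 took 31.6%, IL6R-208 23.1%, IL6R-204 18.9% and IL6R-207 11.6%. OSMR-202 took 24.0% to 27.0% of OSMR in the 6 libraries without and 16.9% to 20.8% in the 6 with ephrin-B1 siRNA, which was seen in the data and not tested.

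Across the 12 libraries, the 5 genes most like IL6 in log2 CPM were AFAP1L1 (Pearson r = 0.983), MYOCD, SLIT2, PPIF and DPH2 (0.955), chosen from 14272 genes with a mean of at least 1 CPM. For LIF they were ATP2B1 (0.978), CTBP1, NFIB, NOL8 and LDHA (0.974), and for IL11 DST (0.98), RUNX1, LY6K, SEMA3C and MFSD12 (0.972). For SOCS3 they were CC2D1A (0.98), CTDSP1, CERK, AP2M1 and FAM83D (0.964). Among the members, LIF and OSMR were most alike (r = 0.96), and IL11 and STAT3 were most opposed (r = -0.84). These correlations describe 12 libraries that share groups and replicate numbers, and they carry no test.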

How the data were processed

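RNA of HMC3 cells was sequenced in 12 libraries (4 groups of 3) after rRNA depletion. The authors quantified transcripts with kallisto (version not given in the sources used here) against the Ensembl 109 cDNA sequences of GRCh38. The estimated counts deposited by the authors carry no normalization. The deposited TPM, also from kallisto, divide those counts by effective transcript length and scale each library to a fixed sum. Of 188753 transcripts, 167067 (88.5%) could be assigned to 36315 GENCODE 44 genes and accounted for 95.25% to 95.98% of counts. The others were left out. Total estimated counts per library were 13230689 to 25785591.

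Gene sums of the estimated counts were rounded. The 21601 genes whose sum over the 12 libraries reached 10 entered edgeR 4.0.16 (quasi-likelihood test, TMM, all groups in 1 fit, no block) at a Benjamini-Hochberg adjusted p under 0.05. Every p without another name is from this test. CPM are after TMM. The average EphB2-Fc effect is the mean of the effects with and without siRNA. With 3 libraries per group, p-values weigh a difference against the spread between libraries, estimated in 1 fit of all 4 groups. Intervals cover no error of assigning reads to transcripts. Members were named in every comparison. Of other lists, up to 8 genes that passed in any comparison were named, by smallest p, with EFNB1 and the 5 genes most correlated with IL6, LIF, IL11 and SOCS3, and transcripts of at least 10% of a gene's TPM. The levels of IL11RA and OSM, BCL2L1, JAK1, JAK2 and TYK2, and the transcripts IL6ST-204 and OSMR-202 were chosen after their values were seen. Values of 1 listed gene are not reported here. The members and lists were chosen with earlier results of these data known.

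The deposited names give same-numbered libraries of the 4 groups a shared experiment number, so the replicate number was used as a block beside the main fit. The correlation of deviations over genes did not pair replicate 3 (0.01 to 0.18). The biological coefficient of variation was 0.182 without and 0.0649 with the block (8 and 6 residual degrees of freedom). Alternatives were DESeq2 1.42.0 and its size factors, other filters, only the groups compared, an offset for transcript length, limma 3.58.1 on log2(TPM + 1) for genes with a mean TPM of at least 0.1, and leaving out each library. The main fit, the blocked fit and DESeq2 without the block were run on simulated counts with known EphB2-Fc effects. Those counts held no difference between replicate numbers, so they cannot show how the block performs in these data. R 4.3.3 and Python 3.11.15 were used.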

Additional observations from a re-analysis of the deposited data

How the results depend on the processing

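Over the 9 members, 1187 alternative values were computed, and 1096 kept their side of the threshold. Values that passed in neither fit could change sign among these 1096. OSMR in EphB2 vs Ctrl, for instance, was positive in 17 of 23 settings. Of the rest, 47 passed only under the alternative, 44 passed only in the fit reported, and none that passed changed sign. The cause of these changes was not tested. With the replicate block, which pairs libraries of the same number, the members called were 5 in EphB2 vs Ctrl, 4 in EphB2 + ephrin-B1 siRNA against ephrin-B1 siRNA alone, 5 in ephrin-B1 siRNA vs Ctrl and 4 in EphB2 + ephrin-B1 siRNA vs EphB2, against 0, 1, 1 and 1 without it. DESeq2 with the block gave the same counts of members as edgeR with the block, among 1111, 1278, 2441 and 1819 genes. DESeq2 without the block called 2, 2, 3 and 2 members, among 205, 285, 1008 and 660 genes, and gave IL6 no adjusted p in EphB2 + ephrin-B1 siRNA against ephrin-B1 siRNA alone. The block without replicate 3 called 0, 4, 3 and 0 members, among 140, 169, 830 and 333 genes. With an offset for transcript length 0 were called in both comparisons with EphB2 + ephrin-B1 siRNA and 1 in the average EphB2-Fc effect. Over all genes this offset called 7 against ephrin-B1 siRNA alone and 21 vs EphB2. Members called by limma on log2(TPM + 1) were 0 in every comparison, for the average effect 0 against 3. That limma fit called 0 of 21600 genes in each comparison, so the loss was not particular to the members. Only the groups compared gave 0 in both comparisons with EphB2 + ephrin-B1 siRNA. Over all genes these 2 fits called 2 against ephrin-B1 siRNA alone and 0 vs EphB2. A filter of 1 count gave 0 in EphB2 + ephrin-B1 siRNA vs EphB2, among 116 genes. Leaving out each library in turn gave 0 in EphB2 vs Ctrl, 0 to 1 in EphB2 + ephrin-B1 siRNA against ephrin-B1 siRNA alone, 2 to 3 in the average effect, 1 to 2 in ephrin-B1 siRNA vs Ctrl, 0 in EphB2 + ephrin-B1 siRNA vs EphB2 and 0 in the interaction. With limma on log2(TPM + 1) the median of all genes moved to -0.12 in the average EphB2-Fc effect and to 0.129 in ephrin-B1 siRNA vs Ctrl. In that average effect, all genes called were 806 with DESeq2, 349 with filterByExpr and 67 with the length offset, against 223. IL6 rested on 59 to 276 counts per library, which limits its precision.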
